A study of Mus musculus with 8 samples.

Results

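The genes described here are 37 genes of fibroblasts and of the extracellular matrix glycoproteins, chosen by name from a list of receptors, proteoglycans, elastic fibre components and matricellular proteins. All 37 were found among the 55933 genes of the deposited table, and all 37 passed the filter on low values. The RNA came from mammary epithelium of C57BL/6 females at pregnancy day 14.5, and each of the 4 control and 4 cKO mice gave 1 RNA-seq library. The cKO mice were K14-rtTA;teto-Cre;Bmpr1a fl/fl animals, in which doxycycline and the keratin 14 promoter switch on Cre in myoepithelial cells, so the driver is not one made to act in fibroblasts. The sample labels call the control mice WT, and the methods call them littermates without giving their alleles or stating whether they received doxycycline. The study asked what BMPR1a does in the myoepithelium during pregnancy. The cells were released by collagenase and hyaluronidase digestion and were not sorted, so stromal RNA is carried along in each library.

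Fibroblasts around mammary ducts and alveoli secrete most of the interstitial matrix, and myoepithelial cells add to the layer that lies against them. Small leucine-rich proteoglycans such as decorin and lumican bind collagen fibrils and set their spacing. Elastic fibres are built by depositing tropoelastin, the product of Eln, on microfibrils of fibrillin with the help of fibulins and microfibril-associated proteins, and lysyl oxidases crosslink the product. Matricellular proteins such as SPARC, tenascin C and the thrombospondins modulate how cells attach to this scaffold and how growth factors are held in it. Pdgfra and Pdgfrb, the PDGF receptors, mark fibroblasts and, for Pdgfrb, pericytes as well.

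Levels are given as FPKM, the fragments of a gene divided by its length and by a library depth, so that they can be compared between genes. That depth was taken from size factors, which scale the libraries to each other, and not from the reads of each library alone. A library held 16123108 to 19896988 reads on genes, and a member had between 4 and 39767 reads in a library. Keratins 8 and 18 of luminal cells were at 1763 ± 197 and 1278 ± 177 FPKM (SD, n = 4) in control libraries and at 1780.2 ± 377 and 1346 ± 260 FPKM (SD, n = 4) in cKO libraries, which places the members, from 1.02 FPKM for S100a4 to 377 for Sparc as means of the 8 libraries, below the leading epithelial genes. Bmpr1a itself, on chromosome 14 of GRCm38 from 34410734 to 34503341, was not lower in the libraries labelled cKO, with 10.1 ± 1.28 FPKM (SD, n = 4) in control mice against 11.2 ± 1.01 FPKM (SD, n = 4; exact permutation test, two-sided, p = 0.257). The level of Bmpr1a over the whole gene in these mixed cells therefore does not check the labels. Elf5, a transcription factor of alveolar luminal cells, was at 21.3 ± 3.91 FPKM in control and 38.5 ± 8.02 FPKM in cKO mice, and Trp63, which encodes p63 of basal cells, at 3.58 ± 0.576 and 2.45 ± 0.594 FPKM (SD, n = 4 per group). Neither overlapped between the groups, and the adjusted p from limma was 0.0591 and 0.181, 0.00651 and 0.0456 with replicates 1 and 2 against 3 and 4 as a block, and 0.0239 and 0.124 when recovered reads were fitted by limma-voom. Both were named after their values were seen. Of all genes tested, 442 passed with that block, which no label names, and 252 with limma-voom, against 135 in the reported fit. Beside Trp63, 4.6% of all genes tested had every cKO library below every control library.

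Upstream sequence is shown for the members that were lower at an unadjusted p under 0.05, have an entry in the promoter table used here and whose 250 bases before the RefSeq start hold no annotated exon, which leaves Vcan and Fbln1. The sequences are from RefSeq, GRCm38.p6, and read 5′ to 3′ towards the start. Vcan is at chr13:89742513-89742762 on the minus strand and Fbln1 at chr15:85205699-85205948 on the plus strand. Capitals mark matches, on either strand, to TATAAA (the TATA box), GGGCGG (the GC box bound by Sp1), GGCGCC (a GC-rich SMAD element), CAGACA (which holds the core SMAD element) and TGACTCA (AP-1). GGGCGG and GGCGCC can share bases.
Vcan: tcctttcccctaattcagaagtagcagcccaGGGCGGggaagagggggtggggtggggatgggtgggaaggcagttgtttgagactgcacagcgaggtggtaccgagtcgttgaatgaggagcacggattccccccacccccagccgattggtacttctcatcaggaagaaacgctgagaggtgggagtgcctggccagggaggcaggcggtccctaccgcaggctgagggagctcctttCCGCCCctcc
Fbln1: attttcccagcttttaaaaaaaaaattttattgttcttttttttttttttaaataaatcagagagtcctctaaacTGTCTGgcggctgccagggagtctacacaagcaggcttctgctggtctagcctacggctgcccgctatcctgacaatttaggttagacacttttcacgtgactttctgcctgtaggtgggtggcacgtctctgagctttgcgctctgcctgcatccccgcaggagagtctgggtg
The Vcan window holds GC boxes that begin 219 and 10 bases before the start and is 62.4% G and C. The Fbln1 window holds a CAGACA match on the other strand that begins 175 bases before the start and is 46.4% G and C, where the median of all promoters is 54.0%. Of the 22 members with an entry in the promoter table, 7 hold TATAAA, 7 GGGCGG, 2 GGCGCC, 5 CAGACA and 0 TGACTCA. Of all 20743 promoters of that length, 12.2% hold TATAAA, 39.3% GGGCGG, 11.2% GGCGCC, 15.9% CAGACA and 4.19% TGACTCA. These matches are letters in a window and were not tested for binding.

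The first question was how far stromal RNA varies from library to library, because a group difference has to be read against that spread. Within a group the members varied more than most genes. Their SD among libraries had a median of 0.33 on the log2(FPKM + 1) scale, against 0.15 over all 15143 genes tested, and 35 of the 37 members lay above the median of all genes. Across the 8 libraries the highest FPKM was at least 2 times the lowest for 26 of the 37 members. The spread was shared by the members. In the control group, library 4 was the highest of its group for 27 members and library 3 the lowest for 25. In the cKO group, library 1 was the highest for 31 and library 3 the lowest for 29.

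A list of 12 fibrillar and associated collagen genes that holds none of the 37 members showed the same libraries at its ends. Its mean log2(FPKM + 1) was 4.74, 5.31, 4.71 and 5.45 in control libraries 1 to 4 and 5.11, 4.71, 4.39 and 4.89 in cKO libraries 1 to 4. Control libraries 2 and 4 and cKO library 1 were thus the richest in collagen RNA, and cKO library 3 was the poorest. Control libraries averaged 5.05 ± 0.38 and cKO libraries 4.78 ± 0.30 (SD, n = 4 for both), a log2 difference of -0.28 that is smaller than the range of 0.74 within the control group and of 0.71 within the cKO group. Col1a1, the main chain of type I collagen, ran from 122 to 266 FPKM in control and from 85.3 to 185 FPKM in cKO libraries. In bulk RNA, fewer fibroblasts and less RNA per fibroblast cannot be told apart.

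**Figure D1:**
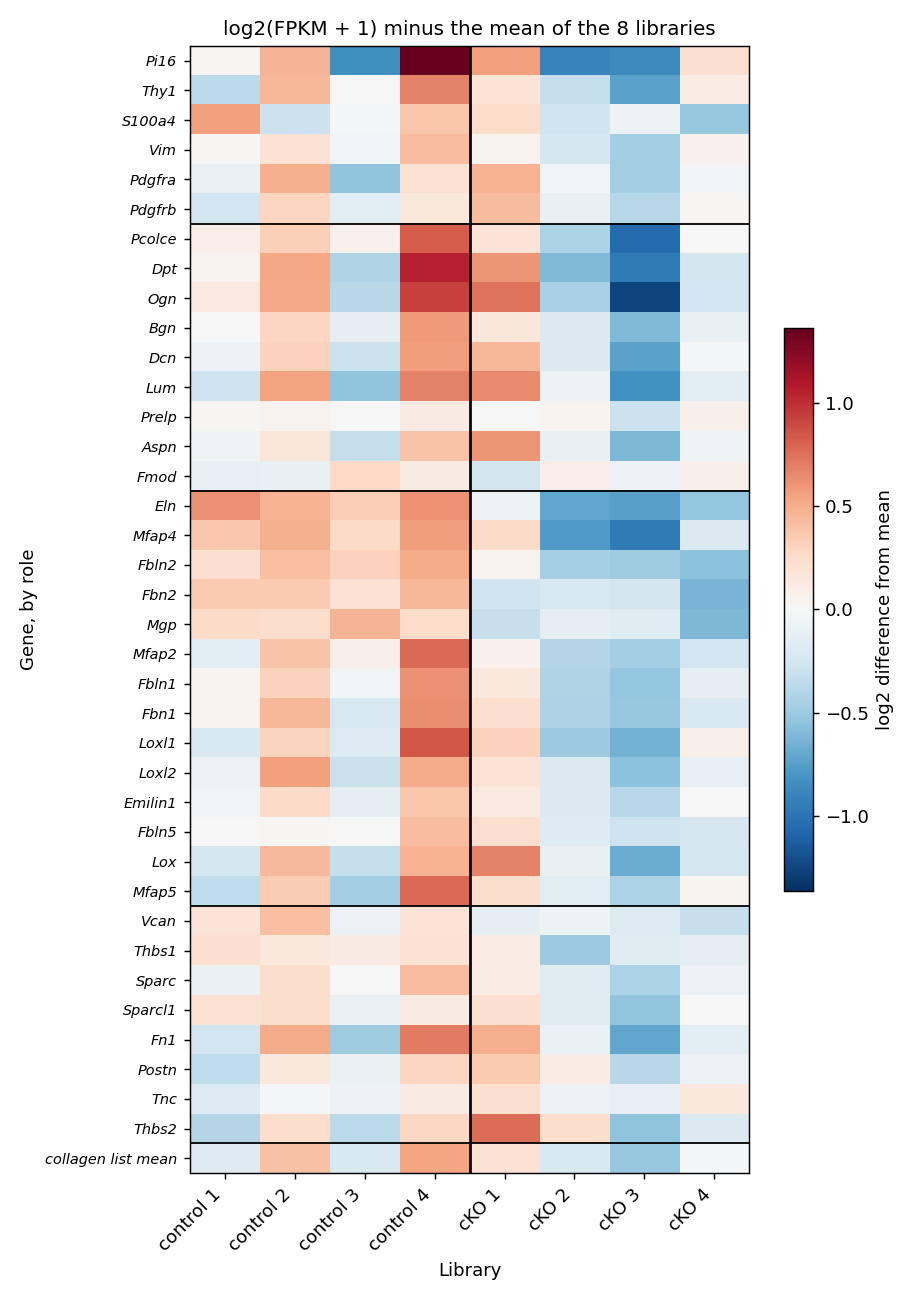
Colour gives the log2(FPKM + 1) of each member (rows, by role, with the collagen list mean in the last row) minus its mean over the 8 libraries (columns, control left and cKO right of the thick line). Most rows are red in control libraries 2 and 4 and in cKO library 1 and blue in cKO library 3, while Eln, Fbln2, Fbn2 and Mgp are red in all 4 control libraries.

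Against this spread, most members did not pass the test between control and cKO mice, and those that passed were 3 genes of elastic fibre proteins and Mgp, which was placed in the same list. Differences between lists were not tested. Eln, Fbn2, Fbln2 and Mgp fell in the cKO libraries, with an adjusted p under 0.05 from limma over all genes tested. Of the 37 members, these 4 passed, all in the lower direction, where 0.304% of all genes tested were lower by the same rule. The methods name p under 0.05 and do not state whether it was adjusted. At an unadjusted p under 0.05, 10 of 37 members were lower, against 7.53% of all genes tested, and 0 of 37 were higher, against 8.85% of all genes. The 4 cKO values all lay under the 4 control values for 5 of the 37 members, against 4.60% of all genes. The median log2 difference of the 37 members was -0.30, and that of all genes tested 0.00, with 35 of the 37 members and 49.8% of all genes below 0. Dividing each library by its own FPKM total instead, which moved the median of all genes by -0.05, changed the share of higher genes among all those with an unadjusted p under 0.05 from 54.0% to 32.2%, and with it 13 of 37 members were lower, against 10.9% of all genes, and 0 higher, against 5.20%. Under that scaling Eln and Fbn2 kept an adjusted p under 0.05, and Fbln2 and Mgp did not (adjusted p = 0.0503 and 0.0523 from limma).

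The elastic fibre and crosslinking genes numbered 14, and all 14 had a lower mean log2 level in cKO libraries, with a median difference of -0.46. Of them, 4 passed the adjusted test and 7 had an unadjusted p under 0.05. Their summed FPKM ran from 219 to 279 in control and from 139 to 195 in cKO libraries. Eln, which encodes tropoelastin, lies on chromosome 5 from 134702593 to 134747323. It was measured in FPKM at 34.8, 31.4, 28.4 and 34.6 in control libraries 1 to 4 and 21.2, 13.3, 12.9 and 15.1 in cKO libraries 1 to 4. The groups did not overlap, and even cKO library 1, the richest in collagen RNA of its group, was below the lowest control library. The mean fell from 32.3 ± 3.01 to 15.6 ± 3.84 FPKM (SD, n = 4 per group), 51.6% lower in cKO, with a log2 difference of -1.02 (standard error 0.15, adjusted p = 0.0268 from limma). At least 1665 reads lay behind each value.

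Fbn2 encodes fibrillin 2, a microfibril protein most abundant in growing tissue, and lies on chromosome 18 from 58008623 to 58210487. Its level was 2.71, 2.69, 2.31 and 2.95 FPKM in control libraries 1 to 4 and 1.40, 1.49, 1.42 and 0.860 FPKM in cKO libraries 1 to 4. No cKO library reached the lowest control library, and cKO library 4 was below the other 3 cKO libraries. The log2 difference of -0.68 (standard error 0.11, adjusted p = 0.0339 from limma) understates the ratio of such low values, since 1 is added before the logarithm, and the mean was 51.6% lower in cKO. Fibrillin 1, its widely expressed relative encoded by Fbn1, overlapped between the groups, with 7.38 to 14.2 FPKM in control and 5.82 to 10.5 FPKM in cKO libraries (log2 difference -0.46, standard error 0.22, unadjusted p = 0.0624 from limma).

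Fbln2 encodes fibulin 2, a glycoprotein that binds tropoelastin and fibrillin, and lies on chromosome 6 from 91212455 to 91272540. Its values were 23.6, 26.8, 25.0 and 28.8 FPKM in control libraries 1 to 4 and 20.4, 14.3, 14.0 and 13.3 FPKM in cKO libraries 1 to 4. Library 1 of the cKO group stood above the other 3 and still below every control library. The log2 difference was -0.73 (standard error 0.13, adjusted p = 0.0461 from limma). Mgp, on chromosome 6 from 136872435 to 136875823, encodes matrix Gla protein, an inhibitor of calcification that also binds BMP ligands. It was at 78.9, 78.0, 91.0 and 78.6 FPKM in control and at 53.0, 60.2, 58.7 and 42.9 FPKM in cKO libraries 1 to 4. The groups were apart, and the order of libraries within a group was not that of the collagen list, since cKO libraries 2 and 3 were the highest of their group. The log2 difference was -0.60 (standard error 0.11, adjusted p = 0.0488 from limma).

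For these 4 genes the direction held with each library left out in turn, and the adjusted call did not. Without control library 1, 2, 3 or 4, or without cKO library 2 or 4, none of the 37 members had an adjusted p under 0.05 in limma, while between 7 and 14 members still had a lower level at an unadjusted p under 0.05. Of all genes, 6.06% to 7.79% were lower by that unadjusted rule in these 6 fits. After adjustment 5, 1, 9, 0, 11 and 12 of all genes passed in them, in the order given, against 135 in the reported fit. The loss of adjusted calls was thus not particular to these 4 genes. Without cKO library 1, Eln and Fbln2 passed, among 78 of all genes, and 18 members were lower by the unadjusted rule, against 7.52% of all genes. Without cKO library 3, Eln was the only member to pass, among 77 of all genes, and 7 members were lower by the unadjusted rule, against 7.88% of all genes. Over these 8 fits the log2 difference stayed between -1.17 and -0.95 for Eln, between -0.73 and -0.59 for Fbn2, between -0.86 and -0.66 for Fbln2 and between -0.66 and -0.50 for Mgp. The adjusted p ran from 0.0114 to 0.0877 for Eln, from 0.0566 to 0.106 for Fbn2, from 0.0114 to 0.125 for Fbln2 and from 0.0584 to 0.124 for Mgp.

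**Figure D2:**
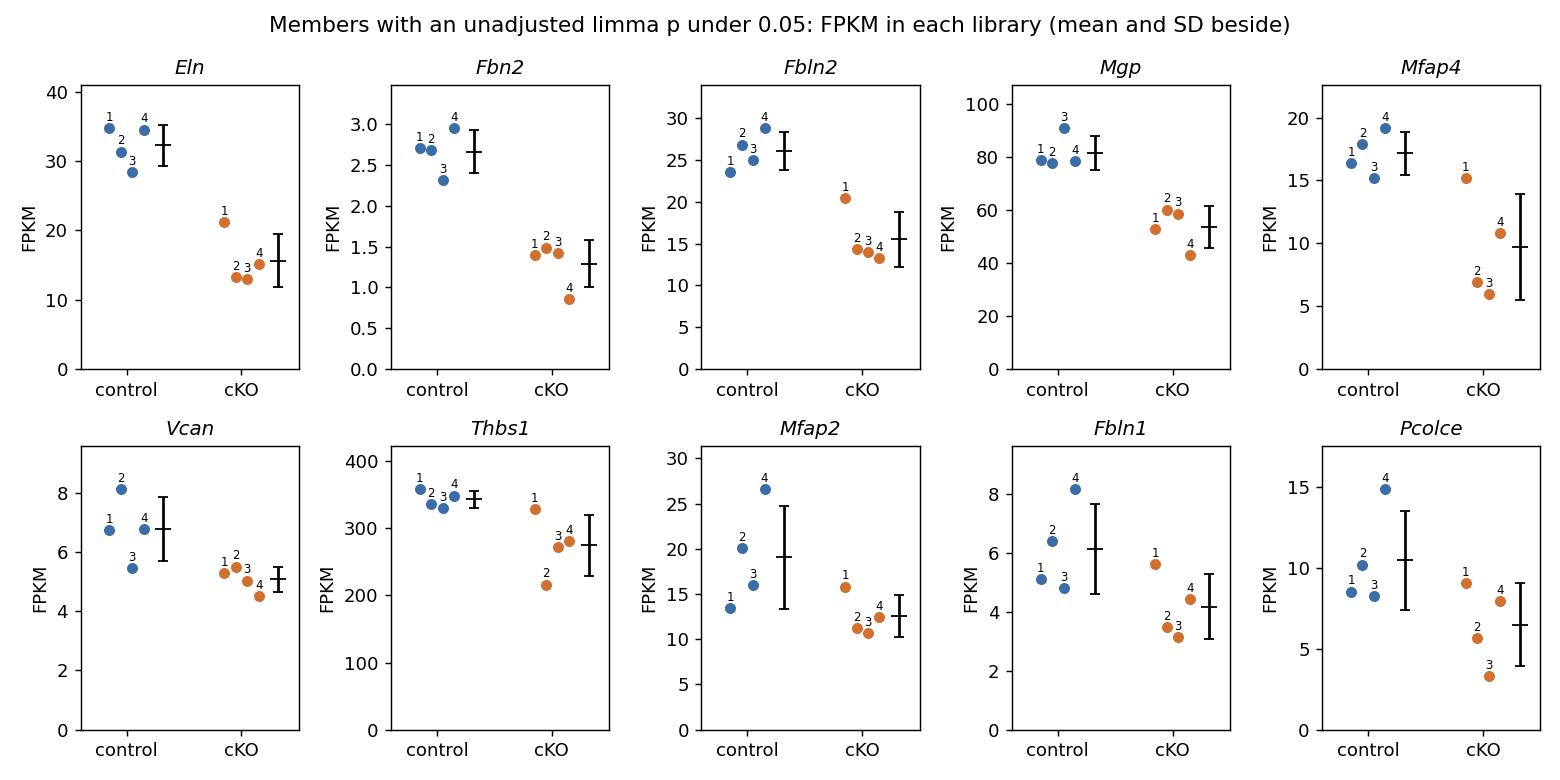
FPKM (y axes, from 0) of the 10 members with an unadjusted limma p under 0.05 in each control (blue) and cKO (orange) library, numbered by replicate, with the mean and SD (n = 4) beside the points. The groups are apart for Eln, Fbn2, Fbln2, Mgp and Thbs1 and touch or overlap for the other 5 genes.

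Mfap4, Mfap2 and Fbln1, the other elastic fibre genes of that plot, had an unadjusted p under 0.05 and did not pass after adjustment. Mfap4, a microfibril-associated glycoprotein that binds elastin and collagen, was at 16.4, 17.9, 15.2 and 19.2 FPKM in control and 15.2, 6.91, 5.93 and 10.8 FPKM in cKO libraries 1 to 4. Control library 3 and cKO library 1 were level, and the other 3 cKO libraries were lower. The log2 difference was -0.84 (standard error 0.24, unadjusted p = 0.00701, adjusted p = 0.139 from limma). An exon of Mfap4 overlaps Mapk7 on the other strand, which was at 7.74 ± 0.386 FPKM (SD, n = 4) in control and 7.18 ± 0.680 FPKM (SD, n = 4) in cKO libraries, and the counting is not stated to use strand. Mfap2, which encodes the microfibril protein MAGP1, was at 13.5, 20.1, 16.02 and 26.6 FPKM in control and 15.8, 11.3, 10.7 and 12.4 FPKM in cKO libraries 1 to 4, and only cKO library 1 lay within the control range (log2 difference -0.54, standard error 0.20, unadjusted p = 0.0235 from limma). Fbln1, the gene of fibulin 1, was at 5.13, 6.41, 4.82 and 8.19 FPKM in control and 5.62, 3.48, 3.16 and 4.45 FPKM in cKO libraries 1 to 4, with the same library in the control range (log2 difference -0.46, standard error 0.18, unadjusted p = 0.0315 from limma).

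The enzymes that crosslink elastin and collagen overlapped widely. Lox, the lysyl oxidase gene, ran from 5.51 to 10.3 FPKM in control and from 4.09 to 12.03 FPKM in cKO libraries, and its highest library was cKO library 1 (log2 difference -0.17, standard error 0.30, from limma). Loxl1, the family member most tied to elastic fibres, ran from 10.6 to 23.0 and from 7.54 to 15.5 FPKM (log2 difference -0.38, standard error 0.28). Loxl2, Fbln5, Emilin1 and Mfap5 had log2 differences of -0.34, -0.23, -0.23 and -0.15 with standard errors of 0.22, 0.14, 0.15 and 0.27.

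The 9 small leucine-rich proteoglycans and collagen binders held the largest library spread of the 4 roles, with a median SD of 0.44 within a group, and 0 of 9 passed the adjusted test. Dcn, the gene of decorin, was at 52.9, 70.1, 45.5 and 83.7 FPKM in control and 77.1, 48.9, 33.6 and 54.95 FPKM in cKO libraries 1 to 4. Lum, the gene of lumican and the neighbour of Dcn on chromosome 10, was at 43.6, 78.2, 36.1 and 85.9 FPKM in control and 84.0, 50.8, 29.7 and 47.9 FPKM in cKO libraries 1 to 4. For both genes cKO library 1 matched the richest control libraries and cKO library 3 was the lowest of the 8. The log2 differences of -0.25 (standard error 0.26) for Dcn and -0.20 (standard error 0.35) for Lum were smaller than the SD within a group.

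Pcolce, whose product enhances the processing of procollagen ends, was the only gene of this role with an unadjusted p under 0.05. It was at 8.54, 10.2, 8.27 and 14.9 FPKM in control and 9.07, 5.65, 3.31 and 7.96 FPKM in cKO libraries 1 to 4, and cKO library 1 lay within the control range (log2 difference -0.65, standard error 0.27, unadjusted p = 0.0401, adjusted p = 0.278 from limma). Dpt, which encodes dermatopontin, and Ogn, which encodes osteoglycin, had log2 differences nearly as large, -0.61 each, with standard errors of 0.38 and 0.41, and neither passed. Their FPKM differed 4.22 and 6.00 times between the highest and the lowest of the 8 libraries. Bgn, the gene of biglycan, ran from 26.7 to 44.4 FPKM in control and from 19.0 to 32.8 FPKM in cKO libraries. Aspn, which encodes asporin, ran from 2.56 to 4.84 and from 1.93 to 5.77 FPKM, and its exons overlap Cenpp, which had up to 107 reads against at least 72 for Aspn. Fmod and Prelp, the genes of fibromodulin and of PRELP, varied little, with the highest of 8 libraries at 1.45 and 1.37 times the lowest and log2 differences of -0.08 (standard error 0.11) and -0.09 (standard error 0.09).

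**Figure D3:**
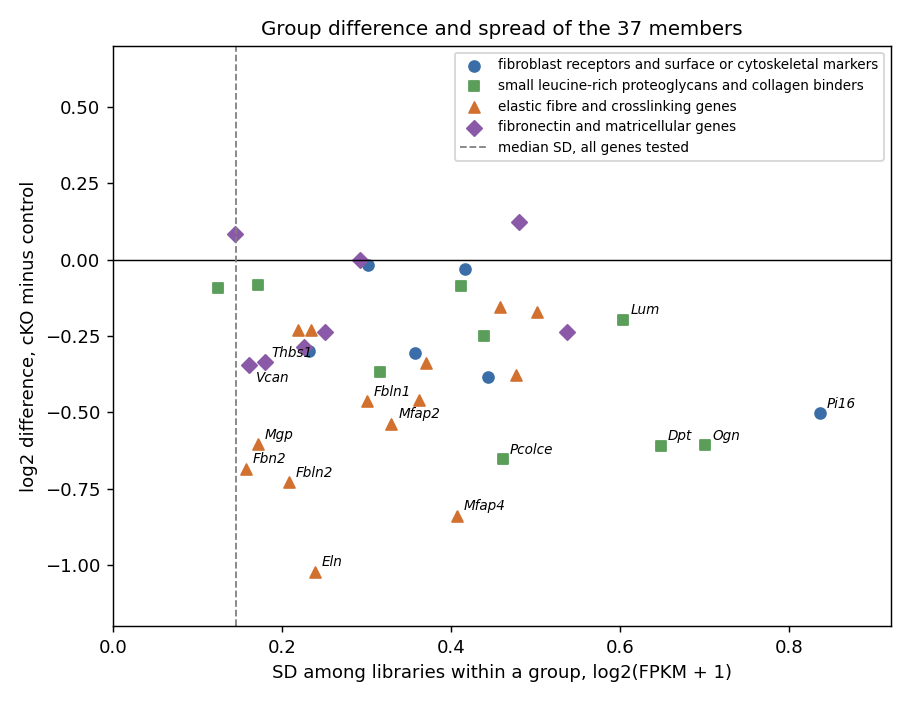
Log2 difference of each member, cKO minus control (y axis), against its SD among libraries within a group (x axis), with the marker shape giving the role and the dashed line the median SD of all genes tested, 0.15. Eln, Fbln2, Fbn2 and Mgp combine a large difference with an SD of at most 0.24, while Dpt, Ogn and Pi16 have large differences with an SD of at least 0.65.

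Among the 8 fibronectin and matricellular genes, 0 passed the adjusted test and 2 were lower at an unadjusted p under 0.05. Thbs1 encodes thrombospondin 1, which binds cells and activates latent TGF-beta, and lies on chromosome 2 from 118111876 to 118127133. It was at 359, 336, 330 and 349 FPKM in control and 328, 216, 272 and 281 FPKM in cKO libraries 1 to 4, so that the groups were apart by a narrow margin between control library 3 and cKO library 1. The log2 difference was -0.34 (standard error 0.12, unadjusted p = 0.0209, adjusted p = 0.213 from limma). Vcan, the gene of the large proteoglycan versican, was at 6.74, 8.14, 5.47 and 6.78 FPKM in control and 5.28, 5.51, 5.04 and 4.53 FPKM in cKO libraries 1 to 4. Control library 3 and cKO library 2 were level, and the log2 difference was -0.35 (standard error 0.11, unadjusted p = 0.0102, adjusted p = 0.161 from limma).

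Sparc, which encodes a collagen-binding protein and had the highest mean of the 37 members, was at 350, 440, 371 and 498 FPKM in control and 399, 331, 276 and 352 FPKM in cKO libraries 1 to 4. Control library 4 was the highest and cKO library 3 the lowest of the 8, and the groups overlapped (log2 difference -0.29, standard error 0.15, unadjusted p = 0.0807 from limma). Fn1, the gene of fibronectin, ran from 24.0 to 56.2 FPKM in control and from 20.4 to 48.2 FPKM in cKO libraries. Postn, the gene of periostin, averaged 80.9 ± 15.4 FPKM in control and 81.2 ± 17.2 FPKM in cKO mice (SD, n = 4 per group) and had a log2 difference of -0.0001 (standard error 0.18). Tnc and Thbs2, the genes of tenascin C and thrombospondin 2, were the members with a difference above 0, at 0.09 (standard error 0.10) and 0.12 (standard error 0.28), and their groups overlapped. Sparcl1, a relative of Sparc, had a log2 difference of -0.24 (standard error 0.15).

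None of the 6 receptors and surface or cytoskeletal markers of fibroblasts had an unadjusted p under 0.05. Vim, which encodes the intermediate filament of mesenchymal cells and is also made by myoepithelial cells, was at 114, 129, 109 and 151 FPKM in control and 116, 94.7, 81.0 and 117 FPKM in cKO libraries 1 to 4 (log2 difference -0.30, standard error 0.14, unadjusted p = 0.0674 from limma). Thy1, a surface glycoprotein of fibroblasts, was at 13.4, 24.1, 17.2 and 28.3 FPKM in control and 19.9, 13.7, 10.03 and 18.7 FPKM in cKO libraries 1 to 4, and 3 of the 4 cKO libraries lay within the control range. The PDGF receptors had the smallest differences of this role. Pdgfra was at 4.48 ± 1.62 FPKM in control mice against 4.33 ± 1.45, and Pdgfrb at 6.35 ± 1.31 against 6.33 ± 1.78 (SD, n = 4 per group), with log2 differences of -0.03 (standard error 0.25) and -0.02 (standard error 0.18). Pi16, which marks adventitial fibroblasts, varied most of all members, from 2.80 to 16.4 FPKM in control and from 2.61 to 8.96 FPKM in cKO libraries. S100a4, often used as a fibroblast marker, had only 4 to 19 reads per library and a difference of -0.30 (standard error 0.22). The parts of counting error and of the spread between mice in that error were not tested.

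To set the group difference beside the stromal level directly, the fit was repeated with the collagen list mean of each library as a covariate. The log2 differences below compare libraries at an equal collagen level. The standard error became smaller for 31 of the 37 members, and the median difference of the members moved from -0.30 to -0.10. Eln, Fbn2, Fbln2 and Mgp stayed lower, with log2 differences of -0.90 (standard error 0.14), -0.67 (standard error 0.13), -0.62 (standard error 0.12) and -0.67 (standard error 0.12). Their unadjusted p was 0.000184, 0.000752, 0.000805 and 0.000396, and their adjusted p 0.0696, 0.0849, 0.0852 and 0.0788 from limma. With the covariate limma called 0 of all 15143 genes after adjustment and 2360 at an unadjusted p under 0.05. Mfap4, Mfap2, Fbln1 and Vcan also stayed lower at an unadjusted p under 0.05, and Pcolce and Thbs1 did not (unadjusted p = 0.0661 and 0.0659, adjusted p = 0.354 for both, from limma). In all, 8 of 37 members were lower by this rule, against 7.43% of all genes tested.

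With the covariate the difference of 10 members turned from below 0 to above it. These were 3 of the 6 fibroblast receptors and markers, 3 of the 9 proteoglycans and collagen binders, 2 of the 14 elastic fibre genes (Lox and Mfap5) and 2 of the 8 matricellular genes, and differences between roles were not tested. Among them were Dcn (0.09, standard error 0.10), Lum (0.27, standard error 0.12), Fn1 (0.18, standard error 0.10), Pdgfra (0.27, standard error 0.14) and Pdgfrb (0.20, standard error 0.10), none with an unadjusted p under 0.05. Tnc (0.19, standard error 0.08, unadjusted p = 0.039 from limma) and Thbs2 (0.45, standard error 0.18, unadjusted p = 0.0336 from limma) were higher, so that 2 of 37 members were higher by the unadjusted rule, against 8.16% of all genes. The covariate itself differs between the groups, and 1 of its 12 genes, Col16a1, passed the adjusted test, so it removes part of any difference that the collagen genes share with the members.

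**Figure D4:**
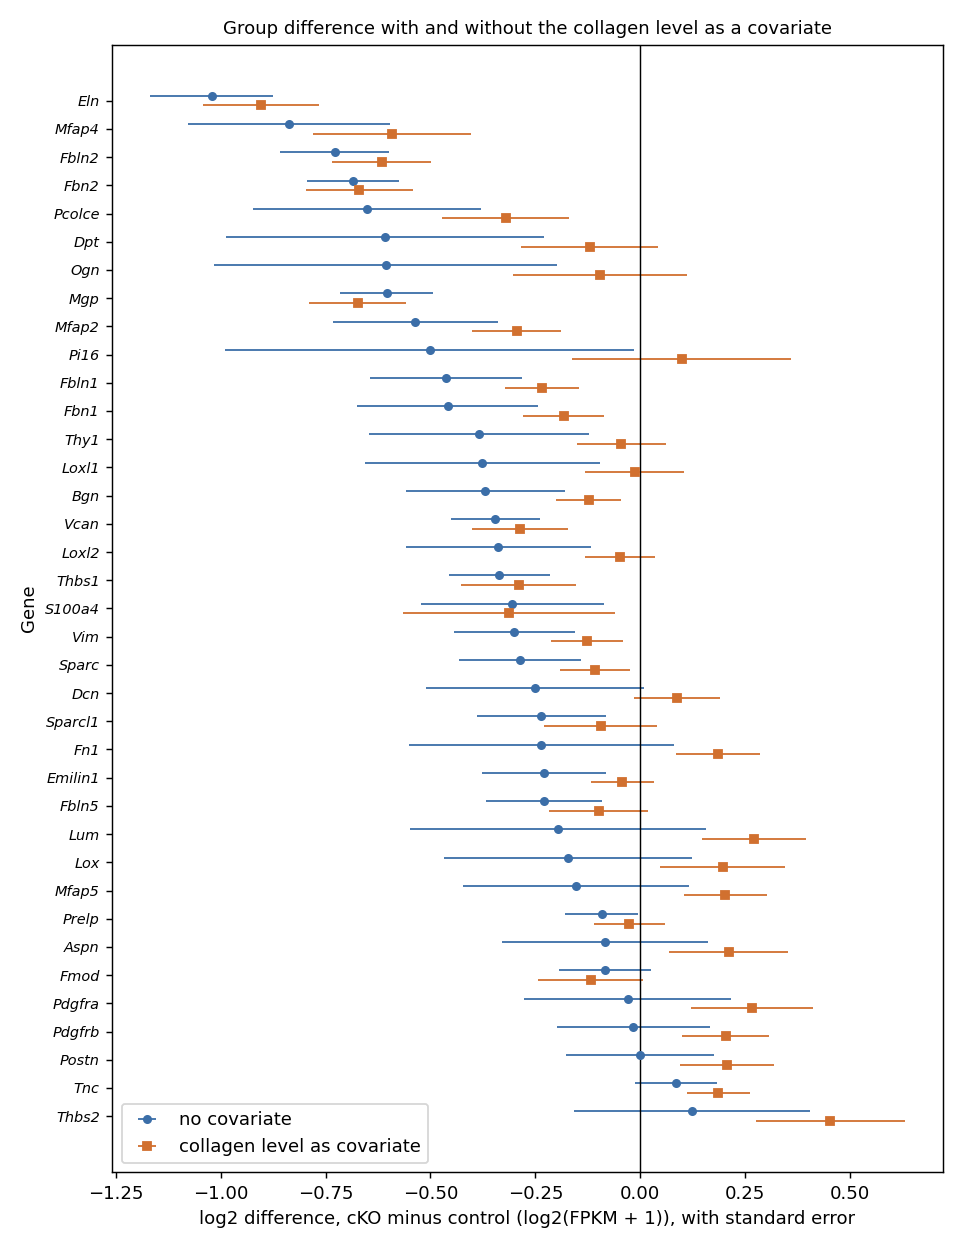
Log2 difference, cKO minus control, with its standard error (x axis) for each of the 37 members (y axis), without a covariate (blue circles) and with the collagen level of each library as a covariate (orange squares). Eln, Fbn2, Fbln2 and Mgp stay below -0.5 in both fits, while Lum, Fn1, Pdgfra and Pdgfrb move from below 0 to above it.

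The libraries also deviate together by sets, replicates 1 and 2 and replicates 3 and 4. No label names these sets, and they are read from these same data. Deviations cancel within a group, so positive correlations within sets go with negative ones between them. Over all genes tested, control and cKO libraries within replicates 1 and 2 or within replicates 3 and 4 had correlations of their deviations from the group means between 0.0797 and 0.178, and libraries from different sets between -0.210 and -0.0720. Within replicates 1 and 2, 24 of the 37 members had a mean log2 level below that of the controls, with a median difference of -0.14, against 50.1% of all genes tested. Within replicates 3 and 4, 36 of 37 did, with a median of -0.51, against 49.4% of all genes. The collagen list differed by -0.12 within the first set and by -0.43 within the second. Eln was lower by the same order of size in both sets, with differences of -0.93 and -1.11, as was Fbn2, with -0.60 and -0.77. For Fbln2 the differences were -0.53 and -0.93 and for Mgp -0.47 and -0.74. Lum differed by 0.16 in the first set and by -0.55 in the second, Fn1 by 0.08 and -0.55, and Thbs2 by 0.58 and -0.33. These differences between sets were not tested.

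Other genes of the matrix were counted from a separate list. Of 42 other matrix glycoprotein and proteoglycan genes, 37 passed the filter on low values, 33 of these had a difference below 0, against 49.8% of all genes, and the median was -0.21. By an unadjusted p under 0.05, 10 were lower, against 7.53% of all genes, and 0 higher, against 8.85%, and 0 passed the adjusted test. The lowest p values were those of Ltbp2, Igfbp7 and Ltbp4. Ltbp2 and Ltbp4 encode proteins of the latent TGF-beta binding family that sit on microfibrils, and Ltbp4 takes part in elastic fibre assembly. Ltbp2 was at 7.84 ± 0.631 FPKM in control mice against 5.21 ± 0.926, and Ltbp4 at 18.3 ± 2.29 against 11.9 ± 2.32 (SD, n = 4 per group), with log2 differences of -0.52 (standard error 0.11, adjusted p = 0.0723 from limma) and -0.59 (standard error 0.13, adjusted p = 0.0778). Igfbp7, a secreted protein also made by vessels, was at 225 ± 12.4 and 159 ± 24.4 FPKM (SD, n = 4 each; adjusted p = 0.0775 from limma). For all 3 genes the groups did not overlap. With the sets of replicates as a block Ltbp2 passed (adjusted p = 0.0451 from limma), as did Agrn, the gene of agrin, named after its value was seen (0.0415), and limma-voom on the recovered reads called Ltbp2, Ltbp4 and Igfbp7 (adjusted p = 0.0401, 0.0425 and 0.0421). Of all genes, 442 passed with that block, which no label names, and 252 with limma-voom, against 135 in the reported fit.

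Of the 12 collagen genes, 11 had a difference below 0, with a median of -0.26, and Col16a1 alone passed the adjusted test. It encodes a fibril-associated collagen and lies on chromosome 4 from 130047840 to 130099283. Control libraries 1 to 4 had 50.9, 47.2, 52.5 and 49.4 FPKM of it and cKO libraries 1 to 4 had 34.1, 27.3, 30.7 and 27.4 FPKM, so that the groups were apart and control library 3, not 4, was the highest. The log2 difference was -0.73 (standard error 0.08, adjusted p = 0.0204 from limma). With the collagen covariate, of which Col16a1 is itself 1 of the 12 genes, it was -0.74 and did not pass (adjusted p = 0.0659 from limma).

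Markers of other cells are given beside these values, by the unadjusted rule under which 7.53% of all genes were lower and 8.85% higher. Endothelial markers summed to 158 to 196 FPKM in control and 121 to 161 in cKO libraries, and 4 of 8 were lower at an unadjusted p under 0.05, with Pecam1 at 24.2 ± 1.82 against 19.8 ± 3.42 FPKM (SD, n = 4 per group) and Vwf past the adjusted test, at 5.33 ± 0.134 against 3.60 ± 0.283 FPKM (SD, n = 4 per group; adjusted p = 0.0268 from limma). Macrophage markers summed to 148 to 200.4 and 99.1 to 153 FPKM, with 4 of 8 lower, among them Adgre1. Pericyte markers summed to 61.0 to 74.5 and 44.7 to 67.8 FPKM, with 1 of the 7 tested, Des, lower. Lymphocyte markers, with Cd3e and Cd3d below 3 FPKM in every library, summed to 6.85 to 50.3 and 3.99 to 6.59 FPKM, with 3 of the 6 tested lower. Of the 5 adipocyte markers tested, Adipoq, Cidec and Cfd were higher, and Cidec passed the adjusted test, at 0.386 ± 0.0668 against 1.56 ± 0.549 FPKM (SD, n = 4 per group; adjusted p = 0.0377 from limma). The summed adipocyte markers overlapped, with 81.0 to 124 FPKM in control and 105 to 140.1 in cKO libraries, and were mostly Fabp4, at 96.7 ± 17.8 against 111 ± 13.2 FPKM (SD, n = 4 per group; unadjusted p = 0.158 from limma). Their part in the differences of the 37 genes was not tested.

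Other fibroblast markers summed to 57.7 to 153 FPKM in control and 40.5 to 106 FPKM in cKO libraries, and 0 of the 9 tested had an unadjusted p under 0.05, with Clec3b at 19.4 to 106 FPKM over the 8 libraries and Tcf21 listed at 0 in 6 of them. Schwann cell markers summed to 87.5 to 100.1 and 84.3 to 103 FPKM, with 2 of the 5 tested lower. Myoepithelial markers summed to 1983 to 2701 and 1808 to 2504 FPKM, with 2 of 9 lower and 1 higher, and Krt14 was at 753 ± 93.7 and 577 ± 88.9 FPKM (SD, n = 4 each; adjusted p = 0.209 from limma) while Krt5 was at 126 ± 12.6 and 128 ± 18.5. For Krt14 the adjusted p was 0.0187 with the sets of replicates as a block, 0.141 with limma-voom and 0.278 with the collagen covariate. Of all genes, 442, 252 and 0 passed in these fits, in that order, against 135 in the reported fit. The myoepithelial gene that was higher was Oxtr, the oxytocin receptor gene, at 2.62 ± 0.329 against 5.65 ± 1.71 FPKM (SD, n = 4 per group; adjusted p = 0.0644 from limma and 0.0377 with limma-voom). Luminal markers summed to 5189.6 to 6533 and 5064 to 6575 FPKM, with 0 of 8 lower and 1 higher. In which of these cells the RNA of Eln, Fbn2, Fbln2 and Mgp was lower cannot be told apart, since each library holds all of them.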

How the data were processed

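Mammary epithelium of 4 control and 4 cKO mice at pregnancy day 14.5 was profiled by RNA-seq. Per the methods, the authors made libraries with a NEBNext Ultra kit and mapped reads to GRCm38 with Hisat2. The submitters' processing notes also name featureCounts 1.5.0-p3 and StringTie 1.3.3b. Those notes name the build mm9, but 99.7% of the 55480 gene identifiers found in GENCODE vM21 have its GRCm38 coordinates, which are used here. Strand use in counting is not stated. The authors deposited FPKM, already scaled by size factors. FPKM times gene length, divided by 1 constant per library, gave whole reads for 100% of values above 0 (tolerance 0.01 of a read). The methods used DESeq2 at p under 0.05, which needs counts and was not run here. The 15143 genes that averaged 0.5 FPKM or more were fitted by limma 3.58.1 (R 4.3.3) to log2(FPKM + 1), with a mean-variance trend and Benjamini-Hochberg adjustment over all genes tested. Fold changes on this scale understate those of low genes. For Bmpr1a all divisions of the 8 libraries into groups of 4 were enumerated (exact permutation test, two-sided), which allows no p under 0.0286. Separate mice are taken as replicates. The procedure was tested on simulated data. Figures used matplotlib 3.10.9 and Python 3.11.15.

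The 37 genes, the other lists and the tests were chosen with earlier results of these data known. Values are given per library for genes with an unadjusted p under 0.05 or groups apart and for the 2 highest genes of each role. In the other matrix lists, genes with an adjusted p under 0.05 or else the 3 lowest unadjusted p values are named, per library for Col16a1 and as mean and SD for the rest. Of the marker lists, the first 2 genes are named where they describe it, and others were named after their values were seen. Alternatives were another pseudocount, filter, scaling, block, covariate and limma-voom, and each library left out. Depth was 16123108 to 19896988 reads on genes per library. The parts of counting error and of the spread between the 4 mice per group in the precision were not tested.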

Additional observations from a re-analysis of the deposited data

Results flagged for a closer look

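Among 76 groups of 4 libraries (37 members and Bmpr1a, control and cKO), 4 had a gap beside their highest or lowest library that exceeded the limit of Dixon's test. About 1 in 20 such groups, or 3.8, would do so by chance. Fbn2 was 0.860 FPKM (0.8597) in cKO library 4 against 1.40 to 1.49 in the other cKO libraries. Fbln2 was 20.4 FPKM (20.43) in cKO library 1 against 13.3 to 14.3. Fbln5 was 5.60 FPKM (5.597) in control library 4 against 3.96 to 3.99. Mgp was 91.0 FPKM (91.01) in control library 3 against 78.0 to 78.9. The cause of these single values was not tested.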

How the results depend on the processing

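Counts of adjusted calls changed most. The number of genes with an adjusted p under 0.05, 135 in the reported fit, was 10 with no filter on low values, 50 with the replicate number as a block, 442 with replicates 1 and 2 against 3 and 4 as a block, 0 with the collagen covariate, 252 when the recovered reads were fitted by limma-voom, 680 when that fit also had the replicate block, and 0 to 78 with each library left out. Of the 37 members, 4 passed in the reported fit, 0 with no filter or with the collagen covariate, 2 (Eln and Fbn2) with the same sum of FPKM per library, 1 (Eln) with the replicate block, 5 (with Vcan) in the voom fit with the replicate block, and 0 to 2 with a library left out. Members lower at an unadjusted p under 0.05 numbered 7 to 18 with a library left out, 18 without cKO library 1, against 10. Of the other matrix and collagen genes, 1 passed in the reported fit, 0 with the collagen covariate, 3 with the block by sets, 4 with limma-voom, 5 with voom plus replicate block, and 0 to 2 with a library left out. Of these genes 11 were lower at an unadjusted p under 0.05, and 7 to 15 with a library left out.

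The difference of 10 members turned above 0 with the collagen covariate, at 0.27 for Pdgfra, 0.20 for Pdgfrb, 0.10 for Pi16, 0.0875 for Dcn, 0.27 for Lum, 0.21 for Aspn, 0.20 for Lox, 0.20 for Mfap5, 0.18 for Fn1 and 0.21 for Postn. Postn was 0.000842 in the voom fit with the replicate block. With a library left out the difference ran from -0.22 to 0.13 for Pdgfra, -0.16 to 0.11 for Pdgfrb, -0.44 to 0.0454 for Lum, -0.30 to 0.10 for Aspn, -0.43 to 0.0255 for Lox, -0.33 to 0.0780 for Mfap5, -0.12 to 0.12 for Postn and -0.11 to 0.33 for Thbs2. The cause of these changes was not tested. Over all alternatives, 595 of 666 differences of the members kept direction and side of the adjusted threshold, 42 were no longer past it, 1 was newly past it and 28 changed sign. A pseudocount of 0.1, a mean FPKM of at least 1 and a second median-of-ratios scaling called Eln, Fbn2, Fbln2 and Mgp, as did the block by sets and limma-voom.

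Same-numbered libraries had correlations of their deviations of 0.137, 0.1096, 0.116 and 0.0797, and libraries of unlike number within the same set 0.178, 0.165, 0.0897 and 0.0873. Not every same-numbered correlation was over 0.1, so the numbers were not taken to pair the libraries. Within sets, 0.0897 and 0.0873 were also under 0.1, no label names the sets, and the block by sets is only an alternative. Control library 2 correlated best with cKO library 1 and control library 3 with cKO library 4. With the replicate block, 13 of 37 members and 9.55% of all genes were lower at an unadjusted p under 0.05, and the adjusted p of Fbn2, Fbln2 and Mgp was 0.0724, 0.0807 and 0.0614. The collagen list difference was -0.28, and -0.34 with the same sum of FPKM. S100a4 had the fewest reads of the members, 4 at least.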
